A study of Mus musculus with 3 samples.

Results

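Transcription factors of the PAX, SIX-class, SOX, FOX, IRX, KLF, nuclear receptor (NR), TBX, LHX, MEOX, HES/HEY, ID, MEIS, PBX, TEAD, ELF and GRHL families were compared between ureteric tree cells and the other cells of the embryonic mouse kidney. Members were chosen by platform gene symbol, and a symbol had to be the family name followed by its number (for FOX genes, a letter and a number, and for nuclear receptors, a digit, a letter and a number). Of 155 such genes on the array design, 34 had a value on all 3 arrays, among 3915 of all 15096 genes on the design. Within these families, membership followed the symbol and the need for a value on every array. The families themselves were chosen with earlier results of these data known.

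Kidneys came from embryos of HoxB7-GFP transgenic mice at 15.5 days post coitum, with both sexes pooled. The transgene uses the HoxB7 promoter to place green fluorescent protein in the ureteric tree, the branching duct that becomes the collecting system. Cells were sorted into GFP+ cells, the ureteric fraction, and GFP- cells, a mixture of every other kidney cell, so both fractions carry the transgene. Amplified RNA of the 2 fractions was hybridised together on each of 3 oligonucleotide arrays read in 2 colours, and the labels state that there was no common reference and no dye swap. Every value below is a log2 ratio of GFP+ over GFP-. That direction is likely but not certain, since the sources used here do not say which dye each fraction carried. A ratio of bulk fractions cannot tell fewer cells of a type from less RNA per cell, and levels of different genes cannot be ranked from it. The labels do not tell whether different embryos were used for each array, so p-values measure array-to-array spread that may be technical in part or whole.

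These families hold many regulators of kidney development. PAX and SIX-class proteins and LHX factors specify the nephric lineage, and FOX and nuclear receptor proteins pattern stroma and vessels. GRHL factors and some, but not all, ELF factors belong to epithelia. HES and HEY proteins are repressors that act downstream of Notch receptors, ID proteins block basic helix-loop-helix factors and respond to bone morphogenetic proteins (BMPs), and KLF and NR4A genes are often induced quickly by growth factors and stress.

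In the direction taken, most markers of the sorted fractions lay on the sides their labels give. Those on the other side were Rab25 of the ureteric list (-0.042), Osr1 of the cap mesenchyme list (0.17) and Tfrc of the erythroid list (0.38), and none of these 3 passed the test. In a list of ureteric epithelium markers, 5 of 7 measured genes were higher in GFP+ cells by limma with Benjamini-Hochberg adjustment, with a median of 2.03. Lower were 3 of 6 cap mesenchyme genes (median -1.19), 4 of 5 stromal genes (-1.61), 5 of 6 macrophage and leukocyte genes (-1.91) and 2 of 4 erythroid genes (-1.24), and 0 of 8 endothelial genes passed (-0.30; 2 lower at an unadjusted p below 0.05). Array 1 stood apart from the other arrays. Across the 3915 genes, which are not independent replicates, Pearson's r was 0.080 between arrays 1 and 2, 0.28 between arrays 1 and 3, and 0.88 between arrays 2 and 3. Across the 34 family genes the same values were -0.11, 0.27 and 0.81. On 17 of the 34 family genes array 1 had the opposite sign to both other arrays, as it had on 50.0% of all genes tested.

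None of the 34 family genes passed the test, which does not show that their levels were equal in the fractions. By limma over all genes, 0 of 34 had an adjusted p below 0.05, where 2.78% of all genes did (1.38% higher and 1.4% lower in GFP+ cells). At an unadjusted p below 0.05 there were 4 higher (Id2, Nr4a1, Nr2c1 and Hes1) and 3 lower (Meox1, Hey1 and Sox12), against 8.45% and 6.41% of all genes. An ordinary one-sample statistic also called 0 after adjustment, with 4 higher and 4 lower unadjusted, where 7.25% and 4.78% of all genes were. Means of these 34 ran from -0.98 (Meox1) to 0.68 (Id2), with a median of 0.084, beside 0.034 over all genes tested. The median size of the mean was 0.21 in the families and 0.20 over all genes. None of the 34 had a mean beyond 1 in size, against 3.04% of all genes tested. That share is so small that 0 of 34 says little of the families. Among family genes with fewer values, Nr2f2 (-1.999) and Foxc2 (-1.78) on 2 arrays and Foxc1 (-1.36) on 1 array lay beyond it. For 30 of the 34 the 95% interval of the mean lay wholly between -1 and 1, which is less than 2-fold either way, as for 84.2% of all genes; the exceptions were Meox1, Sox4, Lhx9 and Id2.

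**Figure D1:**
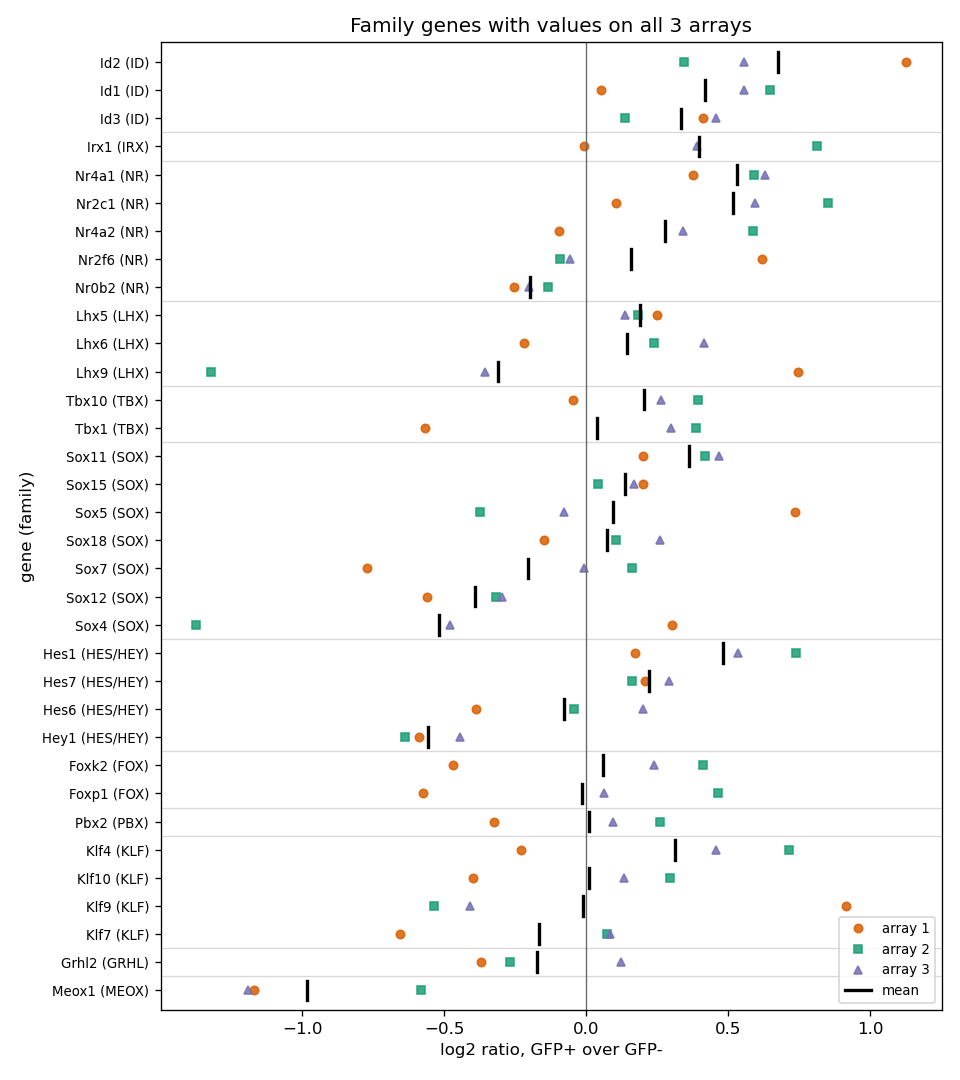
Each row is 1 family gene with values on all 3 arrays, grouped by family. Symbols give the log2 ratio (GFP+ over GFP-) on arrays 1, 2 and 3, and the black bar gives their mean. Id1, Id2 and Id3 lie to the right of 0 on every array, Meox1 and Hey1 lie to the left on every array, and for Klf9, Lhx9, Sox4 and Sox5 array 1 lies to the right of 0 and the other arrays to the left.

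The plot of family genes by array shows how far these values depended on array 1. The sign was the same on all 3 arrays for 14 of the 34, 10 positive and 4 negative, where 35.9% of all genes kept 1 sign (20.7% positive and 15.3% negative). Without array 1, limma called 13 family genes higher and 6 lower, but it then called 46.4% of all genes (27.6% higher and 18.9% lower), so that count says little of the families. The higher genes were Foxk2, Hes1, Id1, Id2, Irx1, Klf4, Lhx6, Nr2c1, Nr4a1, Nr4a2, Sox11, Tbx1 and Tbx10, with means over arrays 2 and 3 from 0.33 to 0.72, and the lower genes were Hey1, Klf9, Lhx9, Meox1, Sox12 and Sox4 (-0.93 to -0.31). Of 46 measured genes of the partner lists described below, 17 passed without array 1, and those named below are given with that value. Without array 2 it called 1 (Meox1, lower), and without array 3 it called 0, where 1.89% of all genes passed. In each of those fits limma gave every member the same standard error, so the calls followed the mean and not a gene's own spread. With array weights (0.15, 1.55 and 4.30 for arrays 1, 2 and 3), limma called 15 higher and 6 lower, beside 33.4% and 22.0% of all genes. Array 1 counted little in that fit, so it was not independent of the fit without array 1.

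The sequences just upstream of 4 members are shown, each pair from 1 family: Id2 with Id3 and Nr4a1 with Nr4a2. Their means were all positive, but so were those of other pairs such as Tbx1 with Tbx10. The choice was also limited by the promoter source, which had no sequence for Id1, Hes1, Hey1, Meox1 or Foxc2. Each is the 250 bases before the transcription start, 5′ to 3′ along the gene, from RefSeq on build GRCm38.p6. Id2 lies at chr12:25096093-25096342 on the minus strand, Id3 at chr4:136143572-136143821 on the plus strand, Nr4a1 at chr15:101266596-101266845 on the plus strand and Nr4a2 at chr2:57124004-57124253 on the minus strand. Capitals mark 2 motifs searched on both strands, TGACG, whose reverse complement is CGTCA and which is the half-site of the cAMP-responsive factor CREB, and GGCGCC, the core of a BMP response element known from Id1. The motifs did not overlap each other.
Id2: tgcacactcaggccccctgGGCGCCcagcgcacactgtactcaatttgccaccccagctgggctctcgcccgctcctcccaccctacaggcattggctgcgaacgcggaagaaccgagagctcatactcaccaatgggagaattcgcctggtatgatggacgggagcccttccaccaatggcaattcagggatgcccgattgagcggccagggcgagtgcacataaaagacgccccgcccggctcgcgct
Id3: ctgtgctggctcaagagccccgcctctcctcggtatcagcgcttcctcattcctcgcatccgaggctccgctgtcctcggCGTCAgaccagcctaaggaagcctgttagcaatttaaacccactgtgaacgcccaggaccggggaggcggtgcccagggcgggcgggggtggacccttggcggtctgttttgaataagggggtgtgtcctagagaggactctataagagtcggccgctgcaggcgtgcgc
Nr4a1: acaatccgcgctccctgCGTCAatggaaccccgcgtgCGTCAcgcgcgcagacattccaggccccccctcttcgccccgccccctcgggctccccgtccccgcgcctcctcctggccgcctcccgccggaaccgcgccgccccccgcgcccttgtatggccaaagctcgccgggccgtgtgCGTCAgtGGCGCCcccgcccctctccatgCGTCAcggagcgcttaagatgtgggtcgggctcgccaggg
Nr4a2: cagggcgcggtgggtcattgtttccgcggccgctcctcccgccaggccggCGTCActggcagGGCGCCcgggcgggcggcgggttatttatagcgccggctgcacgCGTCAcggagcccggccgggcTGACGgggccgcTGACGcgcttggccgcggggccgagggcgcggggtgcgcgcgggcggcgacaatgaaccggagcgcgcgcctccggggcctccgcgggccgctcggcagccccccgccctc
The Nr4a1 and Nr4a2 windows each held 4 CREB half-sites and 1 GGCGCC, the Id2 window held 1 GGCGCC and no half-site, and the Id3 window held 1 half-site and no GGCGCC. Over 32851 promoter windows of the same length, 17.8% held at least 1 half-site, 0.137% held 4 or more, and 9.59% held GGCGCC. Those windows were not matched for base composition, so the shares do not measure enrichment in the 4 shown. In Nr4a1 the half-site nearest the start began 40 bases before it. A match of letters is a description of the window and not evidence of binding.

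The 3 measured ID genes had positive values on every array, as did 20.7% of all genes, and none of them passed the test. Id2, an inhibitor of E-protein transcription factors, had 1.13, 0.34 and 0.55 on arrays 1, 2 and 3, a mean of 0.68 ± 0.41 (SD, n = 3 arrays) or 1.60-fold, and limma gave an adjusted p of 0.203. Id1, which blocks the same partners, had 0.051, 0.65 and 0.56, and Id3 had 0.41, 0.14 and 0.46. All 9 of these values were positive, though Id1 on array 1 was close to 0 and Id2 was highest where Id1 was lowest. The means of Id1 (0.42 ± 0.32) and Id3 (0.34 ± 0.17) did not pass (limma adjusted p = 0.380 and 0.419, n = 3). Id4 had no value on any array.

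Of 28 genes listed as BMP and Smad pathway members, which act upstream of or beside the ID genes, 9 were measured and 0 passed in limma (1 higher at an unadjusted p below 0.05, also by the ordinary statistic); their median was -0.094. Bmp7, a ligand made by the ureteric tree, had 0.40, 0.79 and 0.94 on arrays 1 to 3 (mean 0.71 ± 0.28, limma adjusted p = 0.135, n = 3). Bmpr2, the type II receptor, had 0.46, -1.08 and -1.39, with array 1 on the other side of 0 from the others (mean -0.67 ± 0.99). Without array 1, where 46.4% of all genes passed, Bmp7 had 0.86 (limma adjusted p = 0.00301) and Bmpr2 had -1.24 (0.00167).

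Among the Notch-responsive repressors, Hes1 and Hey1 lay on opposite sides of 0 on every array. Hes1, a repressor that holds cells in a progenitor state, had 0.17, 0.74 and 0.54 (mean 0.48 ± 0.29, 1.40-fold, limma adjusted p = 0.289, n = 3). Hey1, a related repressor used in vessels and in early nephrons, had -0.59, -0.64 and -0.44, the smallest SD of the 8 members with the largest means (-0.56 ± 0.10, 1.47-fold lower, adjusted p = 0.179). Hes1 exceeded Hey1 by 0.76, 1.38 and 0.98 on arrays 1, 2 and 3; the pair was singled out after its values were seen, and that difference was not tested. Hes7, the oscillating repressor of somite segmentation, had a small positive mean (0.22 ± 0.07), and Hes6, which antagonises Hes1, had -0.077 ± 0.30 with both signs. Hes2, Hes3, Hes5 and Hey2 had no value.

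Of 30 listed Notch pathway genes, 9 were measured, 4 with a positive and 5 with a negative mean (median -0.13). By limma 0 passed, and 0 did so at an unadjusted p below 0.05, also by the ordinary statistic. The list's extremes were Psenen (0.34 ± 0.45), a subunit of the gamma-secretase that releases the Notch intracellular domain, and Dtx3 (-0.28 ± 0.46), a Deltex-type ubiquitin ligase. Notch3, a receptor of mural cells, had 0.12 ± 0.43 and Dll4, an endothelial ligand, -0.25 ± 0.22. Without array 1, where 46.4% of all genes passed, Psenen had 0.58 (limma adjusted p = 0.0157) and Notch3 had 0.37 (0.0256). Endothelial markers sat on the same side as Hey1 and Dll4: all 8 measured had negative means, from -0.96 to -0.016 (median -0.30). That side was not particular to them. Medians were lower for the stromal (-1.61), cap mesenchyme (-1.19), macrophage and leukocyte (-1.91) and erythroid (-1.24) lists. The part of any of these cell types in the Hey1 value was not tested.

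Nuclear receptors held 2 of the 3 highest means of the families. Nr4a1, an orphan receptor and immediate early gene, had 0.38, 0.59 and 0.63 (mean 0.53 ± 0.14, 1.45-fold, limma adjusted p = 0.201, n = 3), and all arrays were positive. Its relative Nr4a2 had -0.095, 0.59 and 0.34 (0.28 ± 0.35), so array 1 alone was negative. Nr2c1, the testicular receptor 2, had 0.11, 0.85 and 0.60 (0.52 ± 0.38, adjusted p = 0.299), lowest on array 1. Nr2f6, a COUP-family repressor, had 0.16 ± 0.40, positive on array 1 only, and Nr0b2, the small heterodimer partner, had -0.20 ± 0.06, the one negative mean among the 5 receptors measured on all arrays. Both NR4A genes were lowest on array 1, but so were Nr2c1, Hes1, Id1 and other members. Array 1 also had the lowest median over all genes tested (-0.044, against 0.089 and 0.083 on arrays 2 and 3).

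Nr2f2 (COUP-TFII), a receptor of stroma, veins and lymphatics, had the lowest value of any family gene but no value on array 1. It had -2.07 and -1.93 on arrays 2 and 3, a mean of -1.999 or 3.997-fold lower in GFP+ cells. Foxc2, a forkhead factor of mesenchyme and vessels, was close behind with -1.80 and -1.75 on the same arrays (mean -1.78, 3.43-fold lower). In a fit over the 4744 genes with values on at least 2 arrays, both were lower by limma (adjusted p = 0.0140 for Nr2f2 and 0.0193 for Foxc2, n = 2 arrays), where 1.69% of all genes were called lower. These 2 arrays were the ones that correlated, so the spread between them may understate the error. Of the 4744 genes, 3915 include array 1, which both genes lack. Without array 1, 18.9% of those 3915 were called lower, so the 1.69% is not a like share. The standard errors of Nr2f2 (0.212) and Foxc2 (0.210) were close to that of Foxo1 (0.211) on the same arrays. The 2 calls thus rested mainly on the size of the mean. Foxc1, the close relative of Foxc2, had -1.36 on array 3 alone. All 5 marker lists of other kidney cells had negative medians on arrays 2 and 3. These were -1.52 and -1.41 for stroma, -1.03 and -0.97 for cap mesenchyme, and -1.93 and -1.95 for macrophages and leukocytes. Erythroid markers had -1.20 and -1.29, and endothelial markers -0.23 and -0.22. The part of any of these cell types in the Nr2f2, Foxc2 and Foxc1 values was not tested.

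Of 48 listed retinoid and nuclear receptor partners, 14 were measured, 11 with a positive mean (median 0.14), where 54.9% of all genes tested had one. In limma 0 passed (3 higher at an unadjusted p below 0.05, 1 by the ordinary statistic), and the list as a whole was not tested. Nrip1, a corepressor of nuclear receptors, had 0.33, 1.03 and 0.77 (mean 0.71 ± 0.35, limma adjusted p = 0.165, n = 3). Aldh1a3, an enzyme that makes retinoic acid, had 0.92, 0.49 and 0.65 (0.69 ± 0.22, adjusted p = 0.130). Both were positive on every array. Both passed without array 1, as 46.4% of all genes did (Nrip1 0.90, limma adjusted p = 0.00354; Aldh1a3 0.57, 0.00885).

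Meox1, a mesodermal homeobox factor known for its role in somites, had the lowest mean of the 34 members. Its values were -1.17, -0.58 and -1.19 (mean -0.98 ± 0.35, 1.97-fold lower), negative on every array and least so on array 2. It missed the threshold (limma adjusted p = 0.0635, n = 3 arrays) but passed without array 2 (-1.18, adjusted p = 0.00603), without array 1 (-0.89, 0.00980), and after median centring (0.0470), scaling (0.0489), quantile normalization (0.0365) or array weights (7.44e-05). It did not pass without array 3 (-0.88, limma adjusted p = 0.545) or by the ordinary statistic (adjusted p = 0.388). Nor did it with robust moderation (0.0515), with genes on at least 2 arrays admitted (0.0579) or with arrays 2 and 3 averaged (0.0894). All members shared 1 standard error without array 2 (0.308), without array 3 (0.386) and with arrays 2 and 3 averaged (0.342). The p-values of those fits therefore follow the size of the mean and not the spread of Meox1. Of all genes, 18.9% were called lower without array 1, 22.0% with array weights, 1.79% without array 2, 1.63% after centring, 2.04% after scaling and 2.15% after quantile normalization. The fit with array weights gave array 1 little weight, so it was not independent of the fit without array 1. By mean, Meox1 ranked in the lowest 1.86% of all genes. Stromal markers had medians of -1.90, -1.52 and -1.41 on arrays 1, 2 and 3, and cap mesenchyme markers -1.67, -1.03 and -0.97. In the same order, macrophage and leukocyte markers had -1.88, -1.93 and -1.95, and erythroid markers -1.08, -1.20 and -1.29. Endothelial markers had -0.46, -0.23 and -0.22. The part of these markers in the Meox1 value was not tested. Its relative Meox2 had no value.

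Within the SOX family, 7 of 17 genes were measured, and their means ran from -0.52 to 0.36. Sox12 and Sox11, both of the SoxC group, lay on opposite sides. Sox12 had -0.56, -0.32 and -0.30 (mean -0.39 ± 0.15, limma adjusted p = 0.332, n = 3), and Sox11, a factor of developing nephrons, had 0.20, 0.42 and 0.47 (0.36 ± 0.14, adjusted p = 0.370). The 2 Sox11 probes disagreed in pattern: one had 0.53, -0.0043 and 0.15 and the other -0.13, 0.85 and 0.79. Array 1 was the highest array for one probe and the lowest for the other, so the SD of their average understates the disagreement. Sox4, the remaining SoxC gene, had 0.30, -1.37 and -0.48 (-0.52 ± 0.84), with array 1 positive and the others negative.

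The endothelial SoxF genes did not pass the test. Sox18 had 0.073 ± 0.21, Sox7 had -0.205 ± 0.50 with -0.77 on array 1, and Sox17, which was not tested, had -0.056 on array 3 alone. Sox5, a SoxD gene of cartilage and neurons, had 0.74 on array 1 and -0.37 and -0.077 on the others (mean 0.096), and Sox6, of the same group, had -0.82 on array 3 alone. Sox15 was slightly positive on every array (0.14 ± 0.08). Sox9, a factor of ureteric tips, was among the 8 SOX genes with no value.

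Of the KLF zinc finger factors, 4 of 14 were measured, and on all 4 array 1 opposed the others. Klf4, a factor of epithelial differentiation, had -0.23, 0.71 and 0.46 (mean 0.31 ± 0.49, limma adjusted p = 0.575, n = 3). Klf9, a target of glucocorticoid and thyroid hormone, ran the other way, with 0.92, -0.54 and -0.41 (-0.0095 ± 0.80); its mean near 0 joins a high array 1 with 2 low arrays. Klf10 (0.010 ± 0.36) and Klf7 (-0.17 ± 0.42) were negative on array 1 and positive on the others. Klf2, an endothelial factor induced by flow, had 0.94 on array 1 and -0.99 on array 3, the widest gap among family genes with values on 2 arrays; Klf13 had -0.84 and -0.23 on arrays 1 and 2, Klf12 had 0.42 and 0.014 on arrays 1 and 3, and Klf3 had -0.28 on array 3 alone.

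**Figure D2:**
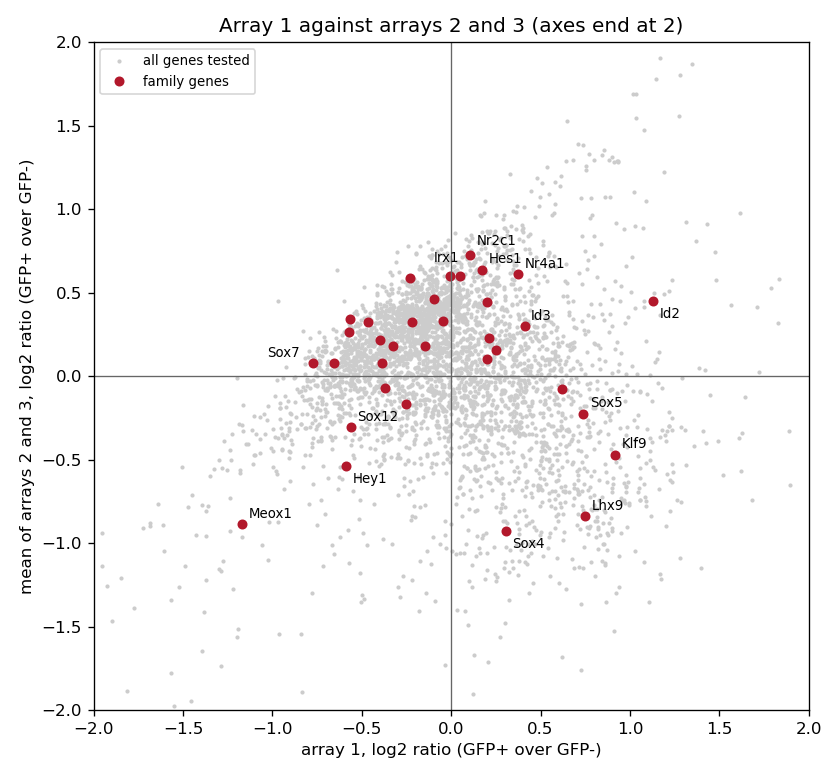
The horizontal axis is the log2 ratio (GFP+ over GFP-) on array 1 and the vertical axis the mean of arrays 2 and 3, with all genes tested in grey and the 34 family genes in red; 36 genes lie beyond the axes. Family genes are spread over all quadrants, with Klf9, Lhx9, Sox4 and Sox5 at lower right and Id2, Nr4a1 and Hes1 at upper right.

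Homeobox families gave few measured genes and no shared direction. Lhx9, a LIM homeobox factor of the gonad and limb, had the largest SD of all 34, with 0.75, -1.32 and -0.36 (mean -0.31 ± 1.04). Lhx6 (0.14 ± 0.33) was negative on array 1 only, and Lhx5 (0.19 ± 0.06) was positive on all arrays. Lhx2 had 0.39 on array 1 and 0.15 on array 3, and Lhx1, which is needed for nephron and duct formation, had no value. Irx1, an Iroquois factor of the nephron tubule, had -0.0058, 0.81 and 0.39 (0.40 ± 0.41, limma adjusted p = 0.438, n = 3), and Irx5 had 0.073 on array 3 alone. Pbx2, a TALE partner of Hox proteins, had 0.011 ± 0.30, Pbx3 had -0.25 on array 3 alone, and Meis1, Meis2 and Meis3 had no value.

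Of 14 listed TALE and LIM cofactors, 7 were measured and 0 passed in limma (1 lower at an unadjusted p below 0.05, also by the ordinary statistic; median -0.039). Ldb2, which bridges LIM homeodomain proteins, had -1.51, -0.48 and -0.61 (mean -0.86 ± 0.56, limma adjusted p = 0.179, n = 3). It passed without array 2 (-1.06, limma adjusted p = 0.0224), where 1.79% of all genes were called lower. In that fit its standard error was the one given to every member, so the p-value does not reflect the spread of Ldb2. It also passed without array 1 (-0.54, limma adjusted p = 0.00946), where 18.9% of all genes were called lower. Rlim, a ubiquitin ligase for LIM cofactors, had 0.24 ± 0.13, and it too passed without array 1 (0.31, limma adjusted p = 0.0381), where 27.6% of all genes were called higher.

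The remaining families were represented by single genes or pairs. Grhl2, a grainyhead factor that maintains epithelial junctions, had -0.37, -0.27 and 0.12 (mean -0.17 ± 0.26, limma adjusted p = 0.697, n = 3), while the 7 measured ureteric epithelium markers ran from -0.042 (Rab25) and 0.58 (Gata2), which did not pass, to 2.36 (Cldn7), with a median of 2.03. The forkhead genes Foxk2 (0.061 ± 0.47) and Foxp1 (-0.016 ± 0.52) were negative on array 1 and positive on the others, as were Tbx1 (0.040 ± 0.53) and Tbx10 (0.21 ± 0.23). On 2 arrays, Foxo1 (0.075 and 0.21) and Foxd3 (-0.035 and 0.20) stayed near 0, as did Tead3 (-0.028 and 0.20) and Nr5a2 (0.037 and 0.16). On array 3 alone, Pax8 had 0.40, Elf1 0.21, Nr1i2 0.18, Tbx18 -0.050 and Six5 -0.87.

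Of 27 listed Hippo pathway genes and TEAD cofactors, 7 were measured and 0 passed in limma (2 lower at an unadjusted p below 0.05, 1 by the ordinary statistic; median -0.024). Dchs1, an atypical cadherin of the pathway, had -0.18, -1.68 and -1.14 (mean -0.998 ± 0.76, limma adjusted p = 0.201, n = 3). Lats2, the kinase that restrains the TEAD coactivator YAP, had -0.39, -0.47 and -0.58 (-0.48 ± 0.10, adjusted p = 0.229). Both were negative on every array. Both passed without array 1 (Dchs1 -1.41, limma adjusted p = 0.00244; Lats2 -0.53, 0.00984), where 18.9% of all genes were called lower. Of 16 listed PAX and SIX-class cofactors, 13 were on the design and 0 had values on all 3 arrays.

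**Figure D3:**
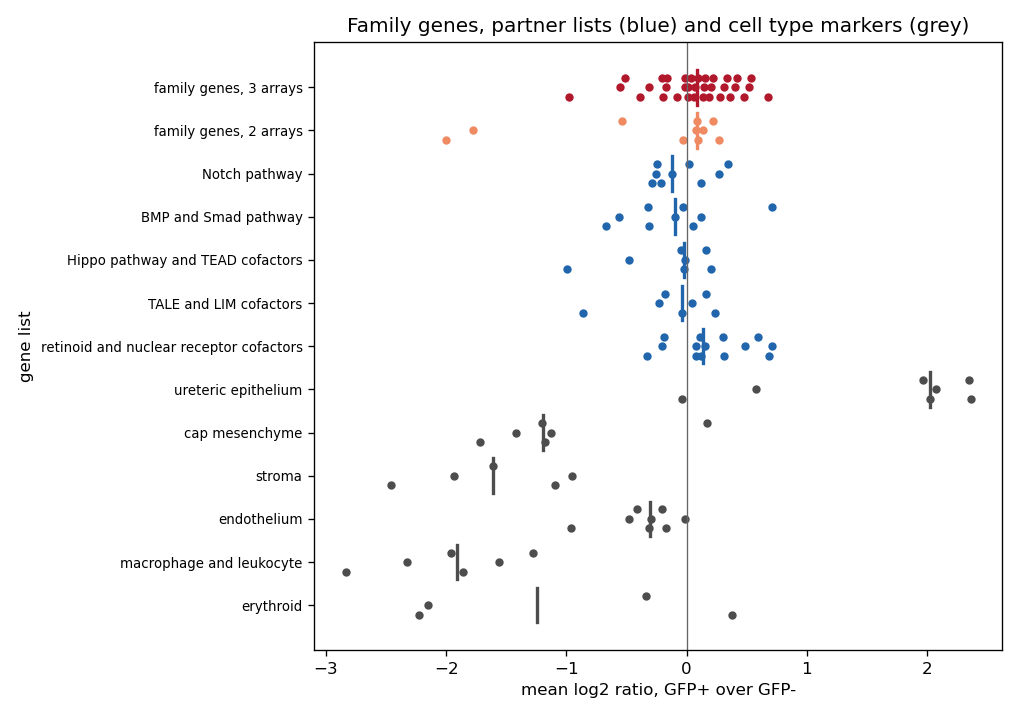
Each point is 1 gene's mean log2 ratio (GFP+ over GFP-), over all 3 arrays or, in the second row, over the 2 arrays that had a value, and vertical bars are medians. Family genes and the partner lists in blue gather around 0, while cell type markers in grey reach medians of 2.03 (ureteric epithelium) and -1.91 (macrophage and leukocyte); Nr2f2 and Foxc2 are the low points of the second row.

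Most family genes had no deposited value. Of the 155, 10 had values on 2 arrays, 11 on 1 array and 100 (64.5%) on none, beside 62.6% of all genes on the design. The share with values on all 3 arrays was 21.9% in the families and 25.9% overall. MEIS had no value at all, PAX, ELF and SIX-class genes had a value on array 3 alone, for 1 gene each, and TEAD had 1 gene on 2 arrays. FOX was the largest family on the design, with 2 of 33 genes on all arrays, against 3 of 4 ID genes and 4 of 8 HES/HEY genes. All 11 genes with a single value had it on array 3, as did 83.8% of all gene probes with a single value. Pax2, Six2, Lhx1, Foxd1 and Sox9, which mark kidney lineages, were on the design with no value. The rule that removed values is unknown, so nothing follows about their expression.

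**Figure D4:**
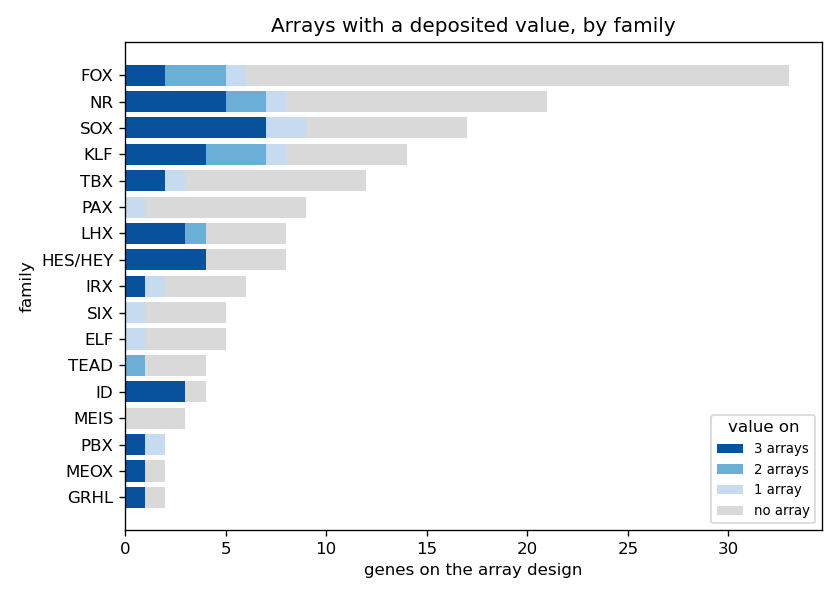
Bars give the number of genes of each family on the array design, split by how many arrays have a deposited value. Dark blue marks the 34 genes with values on all 3 arrays, which include 7 of 17 SOX genes and 2 of 33 FOX genes.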

How the data were processed

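Per the labels, images of 3 2-colour Mouse Compugen arrays were read with Imagene 5.5, and a Lowess curve of log ratio on log intensity, using 20% of points per local fit, corrected the control channel, with control values under 10 set to 10. The deposited values are log2 ratios (base found from the numbers: 99.97% gave whole thousandths, within 0.01 of a thousandth, as powers of 2) and are called filtered, by a rule not given in the sources used here. No raw signals were used.

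Of 17252 probes with 1 symbol, 594 controls or blanks were left out. Probes of a gene were averaged per array, and 3915 genes with values on all 3 arrays were tested against 0 (limma 3.58.1, R 4.3.3; intercept only, two-sided, Benjamini-Hochberg over all genes, threshold 0.05). Intervals come from the same fit; errors are SDs over arrays, whose number limits precision. The fit was tested on simulated data. Every measured family gene is named; partner genes are named if called or among the 2 of largest mean per list, and Notch3, Dll4 and markers were named after their values were seen. Members and lists were chosen with earlier results of these data known. Leave-one-array-out fits and other scalings are given at the end.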

Additional observations from a re-analysis of the deposited data

How the results depend on the processing

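Leaving out 1 array in turn, limma called 0 to 13 family genes higher and 0 to 6 lower, of all genes 74 to 1818, and of partner genes 0 to 3 (Notch), 0 to 3 (BMP), 0 to 3 (Hippo), 0 to 3 (TALE and LIM) and 0 to 5 (nuclear receptor); the high counts came without array 1. Array weights, 1 per array by limma's gene-by-gene method, were 0.15, 1.55 and 4.30 for arrays 1, 2 and 3, so array 1 counted little. That fit called 15 higher and 6 lower family genes and 2170 of all genes. It called 4, 4, 3, 3 and 6 partner genes in the same order. The ordinary one-sample statistic called 1 gene of all 3915 (284 higher and 187 lower unadjusted). Centring, scaling and quantile normalization each called 1 family gene lower (Meox1), and admitting genes with 2 values called 2 (Nr2f2 and Foxc2). The median of the family means, 0.084 with all arrays, ran from 0.041 to 0.199 over the alternatives. Calls of family genes stayed at 0 under robust moderation, arrays 2 and 3 averaged, another choice of probe, updated symbols and a literal reading of the nuclear receptor rule.

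Some members, none of them called with all arrays, changed sign. With 1 array left out, they covered Foxk2 -0.11 to 0.33, Foxp1 -0.26 to 0.26, Hes6 -0.22 to 0.078, Klf10 -0.13 to 0.21, Klf7 -0.29 to 0.079, Klf9 -0.47 to 0.25, Lhx9 -0.84 to 0.20, Nr2f6 -0.074 to 0.28, Pbx2 -0.11 to 0.18, Sox18 -0.021 to 0.18, Sox5 -0.23 to 0.33, Sox7 -0.39 to 0.078 and Tbx1 -0.13 to 0.34. With arrays 2 and 3 averaged the values were Foxk2 -0.071, Klf10 -0.092, Klf9 0.22, Pbx2 -0.072 and Tbx1 -0.11, and with array weights Foxp1 0.15, Grhl2 0.0099, Hes6 0.12, Klf7 0.063, Nr2f6 -0.048, Sox5 -0.13 and Sox7 0.018. Centring gave Klf10 -0.032, Pbx2 -0.031 and Tbx1 -0.0023, scaling Klf10 -0.023 and Pbx2 -0.026, and quantile normalization Klf10 -0.00067. Apart from the effect of fewer arrays, the cause was not tested. No paired analysis was possible because the arrays form 1 group, with no second group to pair them with; each ratio already compares both fractions within 1 array. Signal over background could not be examined, since only ratios were used.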
